A study of Mus musculus with 70 samples.

Results

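The acute-phase protein genes Saa1, Saa2, Saa3, Lcn2, Lrg1, Hp, Serpina3n, Serpina3m, Serpina3g and Cp were followed in RENCA sub-lines, a mouse renal carcinoma model, through serial passage in mice. The 10 genes were chosen by name, with earlier results of these data known, so counts of them called are not independent of that choice. Their non-control probes were found by gene symbol or transcript. A probe was matched for 9 of the 10 genes, through 10 of the 55681 probes on the array, which carry 21154 gene symbols. No probe was matched to Serpina3g, so it has no expression value here.

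RENCA cells carrying GFP from a lentiviral vector were injected under the kidney capsule or into the tail vein of wild type female BALB/c mice aged 6 weeks, recovered from the tumours, cultured until GFP-negative cells were no longer seen, and injected again. Recovery gave 3 series of sub-lines: KPT from the kidney tumour, K-LM from lung metastases after kidney injection, and T-LM from lung metastases after tail vein injection. P0 is the GFP line before any mouse and P1 to P6 are successive passages, and all groups share the GFP vector. In all, 65 RNA samples were run on 70 single-colour Agilent arrays. They were 2 of P0, then, passage by passage, 5, 2, 2, 3, 5 and 5 of the kidney tumour lines (KPT), 5, 2, 3, 4, 6 and 4 of the tail vein lines (T-LM), and 1, 1, 5, 3, 4 and 3 of the metastasis lines (K-LM). All sub-lines derive from 1 parental line, the host mice were immunocompetent, and host cells can remain in a recovered culture.

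Acute-phase proteins are secreted proteins whose blood level changes during inflammation, and the liver is their classical source. Interleukin-6 acting through STAT3, and interleukin-1 and tumour necrosis factor acting through NF-kappaB and C/EBP factors, are the known inducers of their genes. Kidney tubule cells, other epithelia, fibroblasts and macrophages can also express several of them, Lcn2 and Saa3 in particular.

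The promoters of the 3 serum amyloid A genes and of Lcn2 are shown because each holds the same motif. These 4 genes were higher in K-LM than in KPT at P6 in the data below, and so were the other measured genes. Among those, Lrg1 and Serpina3n had no match to this motif, and its part in the results was not tested. The sequences come from RefSeq on GRCm38.p6 and run from 250 bases before to 50 bases after the annotated start, 5′ to 3′ on the gene's strand. Capitals mark a match, on either strand, to the C/EBP motif TTGCNNAA. They lie at chr7:46742931-46743230 (minus strand, Saa1), chr7:46751583-46751882 (plus strand, Saa2), chr7:46715627-46715926 (minus strand, Saa3) and chr2:32387690-32387989 (minus strand, Lcn2).
Saa1: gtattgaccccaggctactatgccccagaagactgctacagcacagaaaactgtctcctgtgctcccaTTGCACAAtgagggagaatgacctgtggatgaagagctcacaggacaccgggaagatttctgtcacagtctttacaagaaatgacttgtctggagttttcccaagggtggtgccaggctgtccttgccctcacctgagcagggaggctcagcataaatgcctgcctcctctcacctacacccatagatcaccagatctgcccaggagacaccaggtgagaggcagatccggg
Saa2: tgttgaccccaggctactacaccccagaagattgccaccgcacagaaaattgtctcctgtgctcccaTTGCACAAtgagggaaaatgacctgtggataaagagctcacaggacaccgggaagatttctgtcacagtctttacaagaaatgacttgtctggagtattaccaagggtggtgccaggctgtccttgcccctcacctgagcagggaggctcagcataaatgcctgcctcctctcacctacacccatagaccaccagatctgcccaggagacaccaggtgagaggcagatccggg
Saa3: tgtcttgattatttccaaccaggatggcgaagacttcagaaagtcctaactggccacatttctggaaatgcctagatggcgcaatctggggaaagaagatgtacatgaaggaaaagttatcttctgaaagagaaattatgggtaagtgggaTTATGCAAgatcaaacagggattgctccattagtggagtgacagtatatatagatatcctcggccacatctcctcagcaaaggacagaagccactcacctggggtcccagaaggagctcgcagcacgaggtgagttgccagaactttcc
Lcn2: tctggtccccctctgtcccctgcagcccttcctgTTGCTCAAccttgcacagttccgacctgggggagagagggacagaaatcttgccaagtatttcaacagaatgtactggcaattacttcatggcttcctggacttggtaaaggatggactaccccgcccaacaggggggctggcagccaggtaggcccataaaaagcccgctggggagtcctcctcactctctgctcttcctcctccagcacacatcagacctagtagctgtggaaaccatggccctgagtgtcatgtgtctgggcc

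Over the aligned bases, the Saa1 and Saa2 promoters were identical at 287 of 299 positions (96%), and their C/EBP matches began 182 and 183 bases before the start. The match began 99 bases before the start in Saa3 and 216 bases before it in Lcn2. Of the 8 genes with a promoter in the table, Serpina3g included, 5 held the C/EBP motif, against 10.8% of all 32851 promoters. The fifth was a second annotated start of Cp, with a match beginning 70 bases before it. The STAT motif TTCNNNGAA was in 8.3% of promoters and the kappaB motif in 8.46%, and among these genes both were found only in Serpina3g. The TATAAA motif was in 13.6% of promoters and in 2 of these genes, Lrg1 and the second start of Cp, where matches on both strands overlapped. Serpina3n and the first start of Cp held none of the 4 motifs, and Hp and Serpina3m had no promoter in the table. A match is a description of the letters and not a measured binding site.

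**Figure D1:**
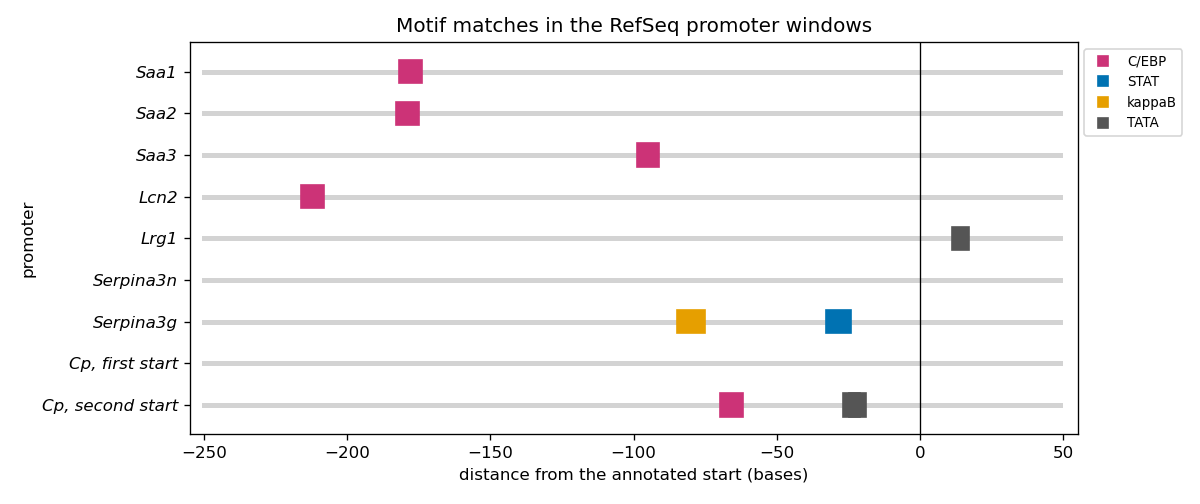
Position of each motif match in the promoters of the 8 genes with one, as distance in bases from the annotated start. The C/EBP matches lie at 182 (Saa1), 183 (Saa2), 99 (Saa3), 216 (Lcn2) and 70 (second start of Cp) bases before the start.

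A level here is the log2 processed signal of a gene's brightest probe minus the log2 of the array's 75th percentile over 11289 probes that were well above background on all arrays. A level of 0 is thus as bright as that percentile, and levels are compared between samples and never between genes, since probes differ in brightness. The scanner software's own call states whether a spot was well above background. Between 25.14% and 55.12% of probes per array passed it (median 32.91%). A difference was called where limma, fitted over all tested probes, gave a p of at most 0.01 after Benjamini-Hochberg adjustment. A probe was tested where it was above background on 2 or more arrays of the fit. A gene can thus pass this filter only through the group where it is high. The labels do not say whether replicates came from separate mice, so the p-values measure the spread between these RNA samples. In such bulk RNA, fewer cells expressing a gene and less RNA per cell cannot be told apart. Where groups are said to be apart or above each other, the share of all probes set apart that way was not counted. Such statements describe these samples only.

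A pair of features of the arrays touches several results. All 3 K-LM P6 samples were hybridised on 1 slide, with repeat arrays of both P0 samples and of 3 KPT P6 samples. The titles of these repeats carry a batch label. The slide's files came from a newer version of the scanner software than those of the other slides. On that ground alone it is called the late slide and the others the earlier slides, since scan dates were not compared. On those 5 repeats the late array differed from the first by -0.18 to -0.04 for Saa1, -0.28 to 0.22 for Saa3 and -0.19 to 0.08 for Lcn2, and by more for probes near background, -1.44 to -0.35 for Serpina3m. Also, the P1 tail sample whose title carries no replicate number stood apart from the other 4 T-LM P1 samples in 5 of these genes, so P1 tail results are given with and without it.

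The cells had the keratin transcripts Krt8 and Krt18 and the renal factor Pax8 above background in 65 of 65 samples, while the tubule markers Lrp2, Slc34a1 and Umod were above background in 0 of 65, Epcam in 4 and Cdh1 in 7. The hepatocyte transcripts Alb, Apoa1 and Ahsg were above background in 0 of 65 samples and Ttr in 2, although Serpina1a was in 56. Of the macrophage and leukocyte genes, Cd68, Csf1r and Itgam passed in 65 of 65 samples, Lyz2 in 62, Fcer1g in 38 and Tyrobp in 36. Adgre1 passed in 18, Laptm5 in 16, Ptprc in 12 and C1qa in 9. Of the neutrophil genes, Elane passed in 65 of 65 samples, S100a8 in 50, Mpo in 13 and Camp in 9. S100a9 passed in 3, Ngp in 1 and Ltf in 0. Summed levels of the neutrophil genes, given below, thus rest on few of them, with Elane and S100a8 most often detected. The log2 summed level of 5 fibroblast markers (Col1a1, Col3a1, Dcn, Lum, Pdgfra) was -5.42 to -5.10 at P0, -2.10 to 2.48 in the 4 KPT P1 samples with all 5 values, 1.25 to 2.80 in the 4 numbered T-LM P1 samples, -1.22 in the unnumbered one and 3.39 in the K-LM P1 sample. Fibroblast markers were thus higher in the P1 samples than at P0, as were most of the genes below, and their part in those results was not tested.

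Most of the genes had a higher mean level at P1 than at P0 and a lower one at P3 than at P1 in each route. In T-LM the P2 samples lay between P1 and P3 for several genes, and Lcn2 there (3.04 ± 0.28, SD, n = 2) was near its P1 level. From P4 on, several were high again in K-LM and fewer in T-LM, while KPT stayed low. The number of the 9 genes above background was 5 in both P0 samples, 9 in 4 of 5 T-LM P1 samples and in the K-LM P1 sample, and 7 or 8 in KPT P1. It was 4 or 5 in every P3 sample. At P6 it was 9 in 3 of 3 K-LM samples, 6 in 4 of 4 T-LM samples and 4 or 5 in the 5 KPT samples.

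**Figure D2:**
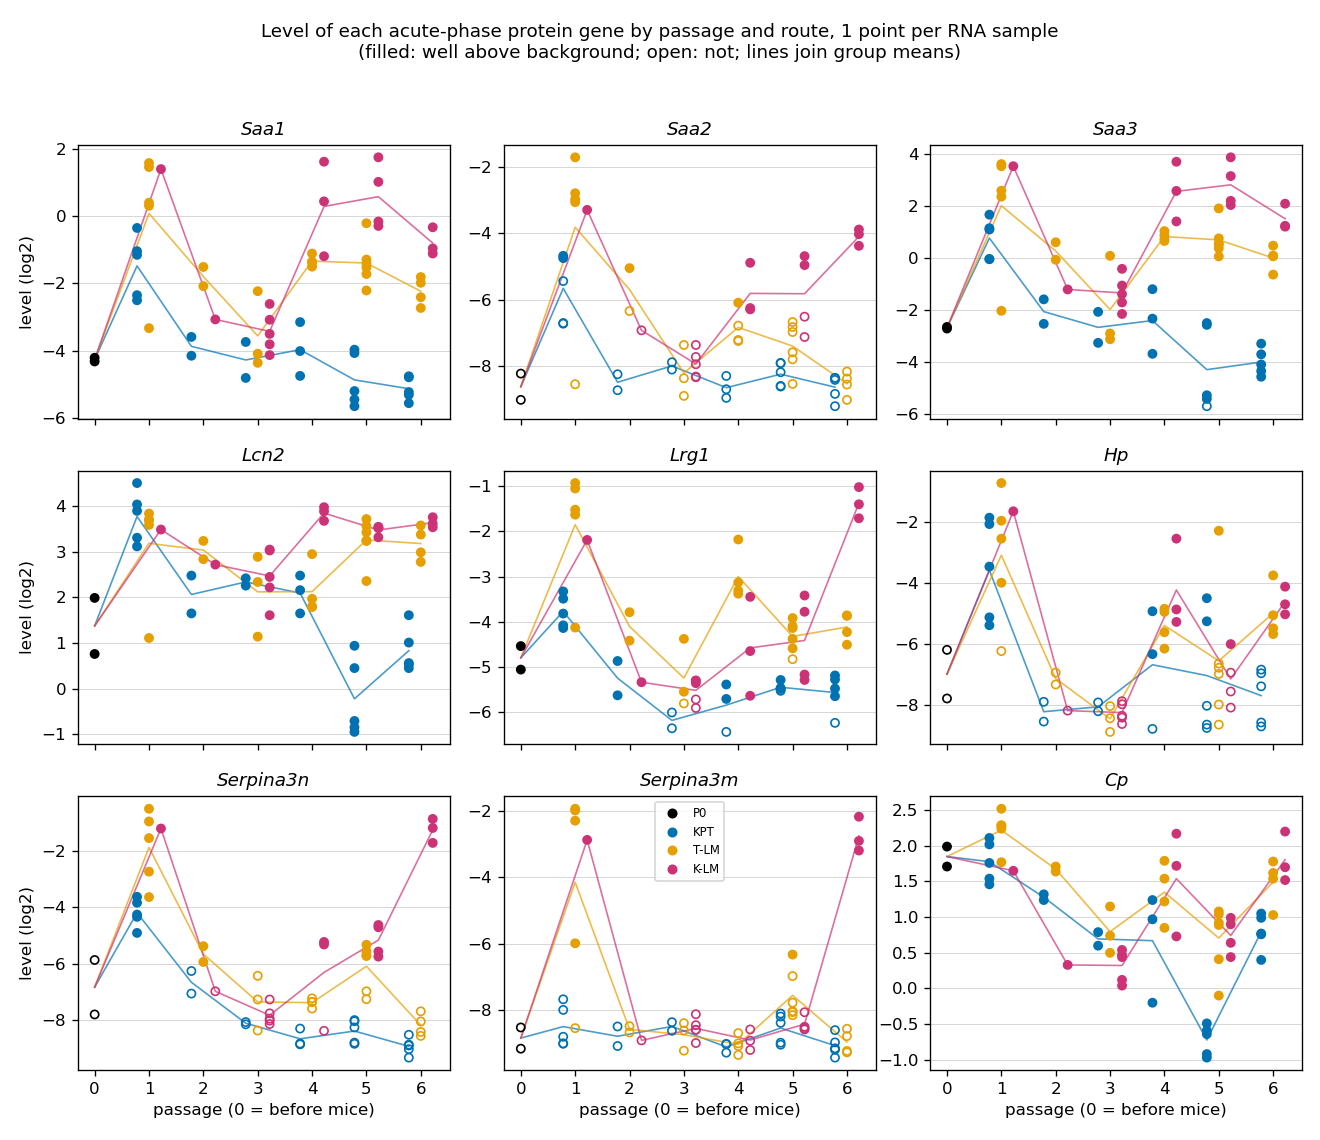
Level (log2, y axis) of each of the 9 genes by passage (x axis) in P0, KPT, T-LM and K-LM, with 1 point per RNA sample (filled when well above background, open when not) and lines joining group means. The 3 K-LM P6 samples sit above the 5 KPT P6 samples in all 9 panels. The share of all probes set apart in this way was not counted. The 6.25% of all probes called higher in K-LM than in KPT at P6 is another measure.

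**Figure D3:**
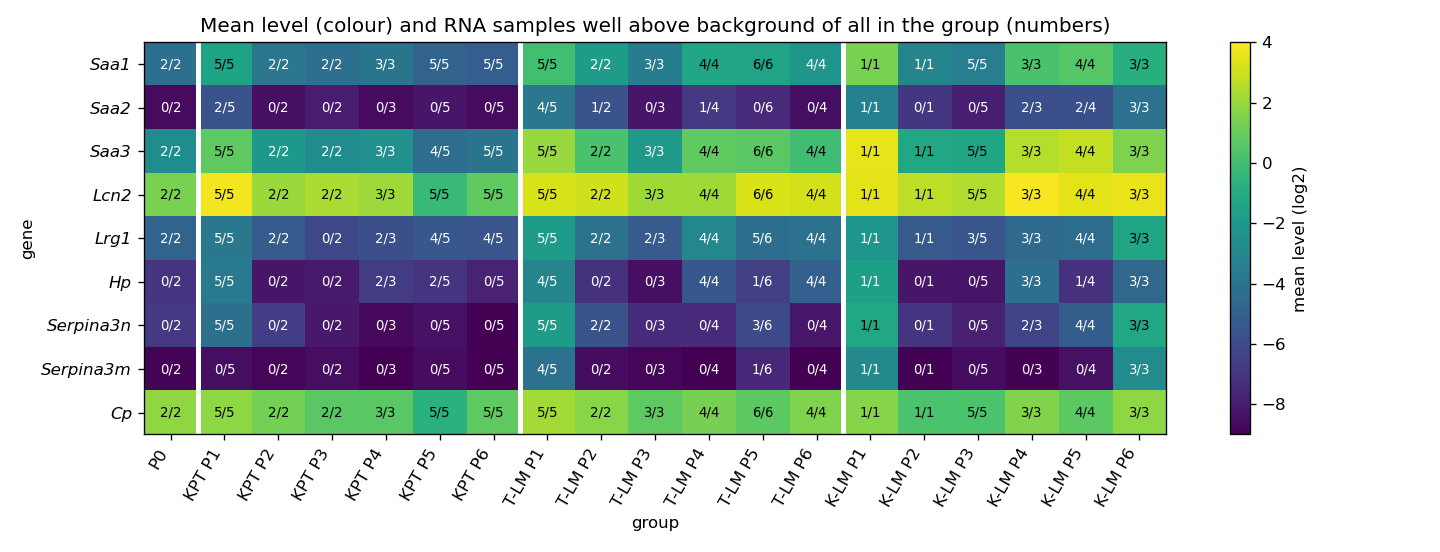
Group mean level (colour, log2) of each gene (rows) in each group (columns), with the number of RNA samples well above background out of all in the group. Serpina3m is above background in 4 of 5 T-LM P1, 1 of 6 T-LM P5, 1 of 1 K-LM P1 and 3 of 3 K-LM P6 samples and in no sample of any other group.

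Saa3 encodes serum amyloid A3, a lipid-binding protein made mainly outside the liver. Its level was -2.65 and -2.71 at P0 and -0.04, -0.05, 1.09, 1.14 and 1.66 in KPT P1. In T-LM P1 it was -2.03 in the unnumbered sample and 2.35, 3.60, 3.52 and 2.58 in the others, and it was 3.52 in the K-LM P1 sample. Every P1 sample was thus above both P0 samples. At P3, Saa3 was -2.07 and -3.26 in KPT and -2.90, -3.12 and 0.08 in T-LM. The 5 K-LM P3 samples were at -2.15, -1.71, -0.42, -1.06 and -1.39. At P4 it was -1.20, -2.33 and -3.68 in KPT and 0.65, 0.73, 0.87 and 1.03 in T-LM. The 3 K-LM P4 samples were at 1.40, 2.57 and 3.69. From P4 on the ranges of the 3 routes were apart, in the order KPT, T-LM and K-LM from low to high at P4, P5 and P6. At P5 it was -2.50, -2.57, -5.41, -5.27 and, not above background, -5.69 in KPT, 0.06 to 1.90 with a median of 0.54 in the 6 T-LM samples, and 3.14, 2.03, 3.86 and 2.19 in K-LM. KPT P5 replicates 1 and 2, the higher pair, also had the higher fibroblast sums (3.47 and 1.43 against -1.80 to -1.44). Their summed macrophage and leukocyte markers (2.98 and 3.42 against 2.09 to 2.22) were higher too. So were their summed neutrophil markers (-2.21 and -2.30 against -3.27 to -2.69). The part of these lists in the result was not tested. At P6 Saa3 was -3.29, -3.70, -4.09, -4.34 and -4.56 in KPT and 0.09, -0.64, 0.47 and 0.06 in T-LM. The 3 K-LM P6 samples were at 1.20, 1.23 and 2.08.

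Saa1 encodes serum amyloid A1, an apolipoprotein of high-density lipoprotein that the liver makes in the acute phase. In the reference annotation used here the symbols Saa1 and Saa2 are each listed as an old name of the other gene, so older lists may have them swapped. Its level was -4.21 and -4.32 at P0, -2.35, -2.50, -1.04, -1.15 and -0.35 in KPT P1, and -4.76, -4.79, -5.31, -5.23 and -5.56 in KPT P6. In T-LM it was -3.33 in the unnumbered P1 sample, 0.31, 1.58, 1.46 and 0.40 in the other P1 samples, and -2.41, -2.73, -1.81 and -1.98 at P6. In K-LM it was 1.40 in the P1 sample, -4.13, -3.50, -2.61, -3.08 and -3.81 at P3, 1.02, -0.29, 1.75 and -0.16 at P5, and -1.11, -0.96 and -0.33 at P6. The order of routes at P6 was the same as for Saa3, and the groups did not overlap.

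Saa1 and Saa3 moved together across all 65 RNA samples, with a Pearson r of 0.99 given as a description, since the samples share passages and arrays. The Saa3 level minus the Saa1 level had a median of 2.04 and an SD of 0.57 over 65 samples, with a range of -0.07 to 2.59, while Saa1 itself ranged from -5.65 to 1.75. Serum amyloid A transcripts are close in sequence, and whether the Saa1 probe also reads the transcripts of Saa2 or Saa3 was not tested. Independent change of Saa1 and Saa3 therefore cannot be told apart from shared signal. Saa2 followed them less closely (r = 0.82 with Saa1 and 0.78 with Saa3), and it was above background on only 16 of 70 arrays.

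**Figure D4:**
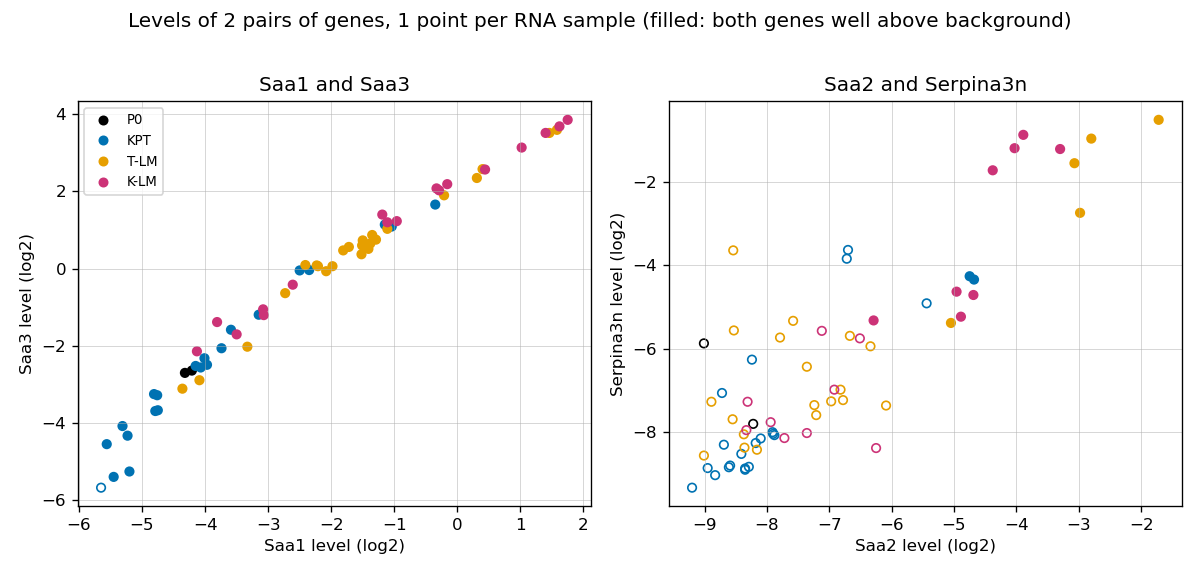
Levels (log2) of Saa3 against Saa1 (left) and of Serpina3n against Saa2 (right), 1 point per RNA sample coloured by route and filled where both genes were well above background. Saa1 and Saa3 follow 1 line (r = 0.99, n = 65), and Saa2 and Serpina3n spread more (r = 0.85, n = 65).

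Saa2 encodes the other acute-phase serum amyloid A of the liver. It was not above background in either P0 sample (-9.01 and -8.22). In KPT it was above background only at P1, in 2 of 5 samples, at -4.75 and -4.68, with the other 3 at -6.70, -6.72 and -5.44. In T-LM P1 it was at -8.54 in the unnumbered sample, not above background, and at -2.98, -2.80, -1.72 and -3.07 in the others. It was above background in 1 of 2 T-LM P2 samples (-5.05) and 1 of 4 T-LM P4 samples (-6.09), and in none at T-LM P3, P5 or P6. In K-LM it was -3.30 in the P1 sample, below background in the P2 sample and all 5 P3 samples, above it in 2 of 3 at P4 (-4.89 and -6.29), in 2 of 4 at P5 (-4.69 and -4.96) and in 3 of 3 at P6 (-4.38, -3.89 and -4.03). Saa2 at P6 was thus detected in K-LM alone of the 3 routes.

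Lcn2 encodes lipocalin 2, a secreted protein that binds bacterial siderophores and is known as a marker of kidney injury. It was above background in all 65 samples. Its level was 1.99 and 0.76 at P0, 3.12, 3.31, 4.51, 4.04 and 3.90 in KPT P1, and 1.01, 1.61, 0.53, 0.45 and 0.56 in KPT P6. In KPT it was lowest at P5 (0.45, 0.94, -0.95, -0.85 and -0.71). In T-LM it was 1.11 in the unnumbered P1 sample, 3.84, 3.71, 3.69 and 3.59 in the others, 1.14, 2.34 and 2.89 at P3, and 2.99, 2.78, 3.58 and 3.38 at P6. In K-LM it was 3.49 at P1, 2.45, 3.05, 3.03, 1.61 and 2.22 at P3, 3.89, 3.98 and 3.68 at P4, and 3.54, 3.62 and 3.76 at P6. Both lung-derived routes were above every KPT sample at P5 and at P6, and T-LM and K-LM overlapped at both passages.

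Lrg1 encodes a secreted leucine-rich glycoprotein that modulates TGF-beta signalling in endothelium. Its level was -4.54 and -5.06 at P0. It was -4.13 in the unnumbered T-LM P1 sample and -1.52, -1.05, -0.93 and -1.63 in the others, and -4.14, -4.08, -3.82, -3.33 and -3.49 in KPT P1. At P6 it was -1.71, -1.02 and -1.40 in K-LM, -3.87, -4.51, -3.86 and -4.23 in T-LM, and -5.48, -5.19, -5.28, -5.65 and, not above background, -6.24 in KPT. The 3 routes did not overlap at P6. In K-LM the P6 samples were also above all 4 P5 samples (-3.78, -5.17, -3.42 and -5.29).

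Hp encodes haptoglobin, which binds free haemoglobin. It was above background on 1 of 4 P0 arrays (mean levels -6.20 and -7.80). In KPT P1 it was -5.13, -5.39, -3.46, -2.06 and -1.85. In T-LM P1 it was -6.24 in the unnumbered sample, not above background, and -3.99, -1.95, -0.71 and -2.54 in the others. No sample of any route was above background at P2 or P3, and in KPT 2 of 3 samples at P4 and 2 of 5 at P5 were. At P6 it was -5.49, -3.75, -5.06 and -5.68 in the T-LM samples, -5.03, -4.12 and -4.70 in those of K-LM, and it was above background on 1 of 8 KPT P6 arrays (mean levels -8.72 to -6.85). The lung-derived P6 samples were thus all above the KPT P6 samples and overlapped each other. At T-LM P5 replicate 1 alone was above background, at -2.28. That sample had a fibroblast sum of 4.24 against -0.28 to 0.57 in the other 5. Its array had the lowest share of probes above background of all 70 arrays (25.1%). The part of either in this value was not tested.

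Cp encodes ceruloplasmin, a copper-carrying ferroxidase. Its brighter probe was above background in all 65 samples and moved less than the other genes. Its level was 1.99 and 1.71 at P0, 1.46 to 2.11 in KPT P1, -0.97 to -0.49 in KPT P5 and 0.40 to 1.05 in KPT P6. It was 1.54, 1.03, 1.78 and 1.62 in T-LM P6, 0.04 to 0.54 in K-LM P3, and 1.52 to 2.2 in the 3 K-LM P6 samples. Cp in K-LM P6 was thus above K-LM P3 and near P0. A second Cp probe, for another transcript, was dim and does not enter the main counts. Its P3 to P6 rise in T-LM was called (1.47 ± 0.32, SE, adjusted p = 0.00378) where the brighter probe's was not (0.70 ± 0.28, adjusted p = 0.108). Both probes were called from P3 to P6 in K-LM and at P5 in T-LM and K-LM against KPT. Only the brighter probe was called from P1 to P6 in KPT (second probe -0.17, adjusted p = 0.656). The same held at P6 against KPT in T-LM (second probe 0.33, adjusted p = 0.331) and K-LM (0.15, adjusted p = 0.692).

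Serpina3n encodes a secreted inhibitor of serine proteases such as granzyme B and neutrophil elastase. It was above background on 1 of 4 P0 arrays (mean levels -5.87 and -7.80). It was -3.63, -3.84, -4.26, -4.91 and -4.34 in KPT P1, and no KPT sample was above background from P2 to P6 (-9.33 to -6.26). In T-LM it was -3.64 in the unnumbered P1 sample, -2.74, -0.96, -0.51 and -1.55 in the others, -5.38 and -5.94 at P2, above background in 3 of 6 at P5, and in none at P3, P4 or P6. In K-LM it was -1.21 at P1, not above background in any P3 sample (-8.14 to -7.27), -4.71, -5.57, -4.63 and -5.75 at P5, and -1.72, -0.87 and -1.19 at P6. K-LM P6 was back at the level of the K-LM P1 sample, whereas T-LM P6 was at background.

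Serpina3m, a neighbouring serine protease inhibitor gene of the same cluster, was above background in the fewest samples. It was -1.98, -1.93, -2.29 and -5.99 in the 4 numbered T-LM P1 samples, -2.87 in the K-LM P1 sample and -2.90, -2.17 and -3.19 in K-LM P6. It was not above background in any KPT sample. Members of the Serpina3 cluster are close in sequence and their probes can cross-read, which was not tested, so the gene-level split within the cluster is uncertain.

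The first question was what a single passage in a mouse did. In KPT, 5 of 8 tested genes rose from P0 to P1, where 4.41% of all probes were called and 3.27% were called higher. Saa3 rose by 3.44 ± 0.80 on the log2 scale (SE, adjusted p = 0.00876), Serpina3n by 2.77 ± 0.38 (adjusted p = 0.000157), Saa1 by 2.73 ± 0.55 (adjusted p = 0.00341) and Lcn2 by 2.37 ± 0.50 (adjusted p = 0.00453). Saa2 was at least 1.99-fold higher at P1 (mean -5.66 ± 1.00, SD, n = 5, against -8.62 ± 0.56, n = 2, limma adjusted p = 0.00262). Without the KPT P1 arrays, where they were high, Saa2 and Serpina3n would not have been tested in this fit. Their calls here and from P1 to P6 in KPT are thus not independent of the filter. Serpina3n, above background on 1 of 4 P0 arrays, and Saa2 lost their calls when dim values were set to a common floor, with differences of 0.80 and 0.12. Hp (3.38 ± 1.20, adjusted p = 0.0644), Lrg1 (1.12 ± 0.31, adjusted p = 0.0211) and Cp (0.00 ± 0.28, adjusted p = 0.996) did not pass. The count was 0 without P0 replicate 2, 1 without P0 replicate 1, and 2, 3 and 3 without KPT P1 replicate 3, 4 and 5. On both slides that held P0 and KPT P1 arrays, all 5 called genes were higher at P1. The summed macrophage and leukocyte markers were at 1.27 and 1.49 at P0, 2.24 to 2.66 in KPT P1 and 1.92 to 2.59 in T-LM P1. Neutrophil sums were -3.42 and -3.28 at P0, -2.87 to -1.45 in KPT P1, -2.64 to -1.02 in T-LM P1 and -0.15 in the K-LM P1 sample. The part of both lists in the P1 results, like that of the fibroblast markers, was not tested.

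In T-LM, 4 of 9 genes rose from P0 to P1, against 2.56% of all probes called and 2.13% called higher. These were Serpina3n (5.08 ± 0.67, adjusted p = 9.29e-05), Saa3 (4.69 ± 0.99, adjusted p = 0.00579), Saa1 (4.30 ± 0.83, adjusted p = 0.00293) and Lrg1 (3.04 ± 0.58, adjusted p = 0.00246). With the floor Serpina3n kept its call at 3.12 and Saa3 lost it. Without the unnumbered sample 8 genes were called, with changes from 2.30 for Lcn2 to 5.70 for Saa3. The count was 0 without P0 replicate 2 and 1 without P0 replicate 1, and both routes were compared with the same P0 samples. At P1 itself 0 of 9 genes were called between T-LM and KPT, where 0.0173% of all probes were called and 2447 of 23144 had an unadjusted p under 0.05. Without the unnumbered sample Lrg1 alone was called, 2.49 higher in T-LM (adjusted p = 0.00236). The K-LM P1 group had a single sample and no test.

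The next question was whether the P1 levels lasted. From P1 to P6 in KPT all 8 tested genes fell, where 11.6% of all probes were called and 6.28% were called lower. Saa3 fell by 4.71 ± 0.61 (adjusted p = 2.21e-05), Hp by 4.10 ± 0.88 (adjusted p = 0.00241), Saa1 by 3.63 ± 0.42 (adjusted p = 6.5e-06), Lcn2 by 2.93 ± 0.38 (adjusted p = 2.19e-05), Lrg1 by 1.75 ± 0.23 (adjusted p = 2.73e-05) and Cp by 0.99 ± 0.21 (adjusted p = 0.00222). Serpina3n was at least 6.23-fold lower at P6 (-8.93 ± 0.29, SD, n = 5, against -4.20 ± 0.49, n = 5, limma adjusted p = 4.09e-09) and Saa2 at least 2.27-fold lower (-8.63 ± 0.38 against -5.66 ± 1.00, limma adjusted p = 6.71e-06). With the floor the calls of Hp, above background on 1 of 8 KPT P6 arrays, and of Saa2 were lost, at -1.53 and -0.12. On each of the 3 slides that held both groups, all 8 genes were lower at P6.

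In T-LM 4 of 9 genes fell from P1 to P6, where 9.28% of all probes were called and 5.45% were called lower. Lrg1 fell by 2.26 ± 0.46 (adjusted p = 0.00152). Serpina3n was at least 28.7-fold lower (-8.18 ± 0.39, SD, n = 4, against -1.88 ± 1.30, n = 5, limma adjusted p = 3.89e-08), Saa2 at least 7.48-fold lower (-8.52 ± 0.36 against -3.82 ± 2.70, adjusted p = 0.000483) and Serpina3m at least 5.96-fold lower (-8.97 ± 0.35 against -4.15 ± 3.00, adjusted p = 0.000683), a call lost with the floor (-1.76). Serpina3m would not have been tested in this fit without the T-LM P1 arrays, where it was high. Lcn2 changed by -0.01 ± 0.47 (adjusted p = 0.993). Without the unnumbered sample Saa3 (-3.02) and Saa1 (-3.17) were called too. Of the 3 slides that held both groups, with 1 sample of each, the one with the unnumbered sample had Saa1 (0.60), Saa3 (1.40), Lcn2 (1.66) and Hp (2.49) higher at P6, and the other slides had them lower. The difference between the routes in the P1 to P6 change was tested directly, and 0 of 9 genes passed, against 1.06% of all probes (3531 of 24045 had an unadjusted p under 0.05). Lcn2 came nearest, with a change 2.92 ± 0.63 higher in T-LM (adjusted p = 0.0166). Without the unnumbered sample Lcn2 passed (2.40, adjusted p = 0.0024). So did Serpina3m and Saa2, whose sizes are not given because Serpina3m was at background in all KPT samples and both genes were in T-LM P6 and KPT P6.

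From P0 to P6 the routes gave different counts. In KPT 0 of 6 tested genes were called, where 3.88% of all probes were and 3847 of 20978 had an unadjusted p under 0.05, and the fitted changes ran from -1.27 ± 0.83 (Saa3, adjusted p = 0.47) to -0.56 ± 0.50 (Lcn2, adjusted p = 0.634). In T-LM 1 of 8 was called, against 7.31% of all probes and 5.9% called higher. This was Saa3, which rose by 2.68 ± 0.63 (adjusted p = 0.00668), and Saa1 (1.98 ± 0.50, adjusted p = 0.0108) and Lcn2 (1.78 ± 0.47, adjusted p = 0.0156) lay just outside the threshold. The Saa3 call was lost without either P0 sample or without T-LM P6 replicate 1, 3 or 4. In K-LM 7 of 9 rose, against 4.84% of all probes and 3.68% called higher. SAA1, SAA2, LRG1 and SERPINA3 are in the study's K-LM signature, whose genes were picked partly for P0 to P6 change in these data. This count is thus not independent of that selection. Serpina3n rose by 5.68 ± 0.68 (adjusted p = 4.68e-06, and by 3.74 with the floor, still called), Saa3 by 4.22 ± 0.55 (adjusted p = 1.35e-05), Saa1 by 3.51 ± 0.58 (adjusted p = 0.000237), Lrg1 by 3.43 ± 0.49 (adjusted p = 4.6e-05) and Lcn2 by 2.29 ± 0.37 (adjusted p = 0.000192, a call lost without P0 replicate 2). Serpina3m was at least 14.9-fold higher in K-LM P6 (-2.76 ± 0.52, SD, n = 3, against -8.85 ± 0.45, n = 2, limma adjusted p = 2.1e-11) and Saa2 at least 5.87-fold higher (-4.10 ± 0.25 against -8.62 ± 0.56, adjusted p = 1.23e-05). Serpina3m would not have been tested in this fit, also used from P3 to P6, without the K-LM P6 arrays. It kept both calls without the filter. In KPT it was not tested, and neither were Serpina3n and Saa2, so the counts of the routes differ in the genes they hold. Hp (2.43 ± 0.67, adjusted p = 0.0246) and Cp (-0.07) were not called. The same 7 genes were called from the late slide alone, which held P0, KPT P6 and K-LM P6 arrays.

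**Figure D5:**
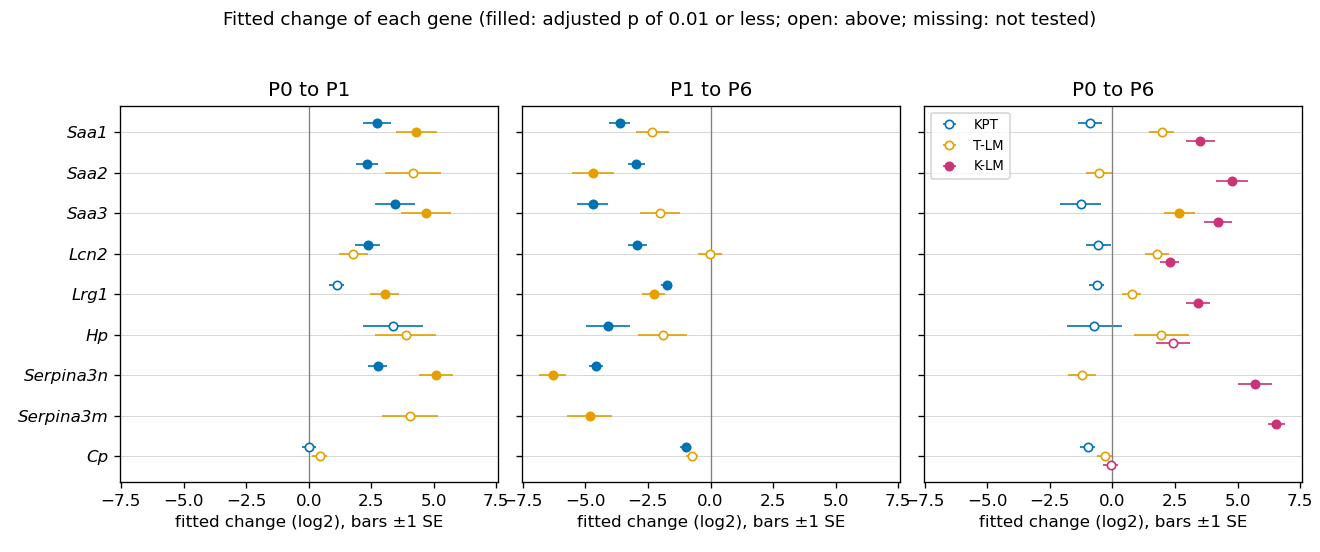
Fitted log2 change of each gene (x axis, bars ±1 SE) from P0 to P1, P1 to P6 and P0 to P6 by route, filled where the adjusted p was 0.01 or less, open above it and missing where not tested. From P0 to P6 7 genes are called in K-LM, 1 in T-LM and 0 in KPT.

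For its enrichment analysis the study compared P6 with P3 in each route, while its choice of biomarkers started from P6 against P0. The P3 to P6 comparison is given here. In KPT 0 of 6 genes were called (0.715% of all probes, 4732 of 20978 at an unadjusted p under 0.05), and in T-LM 0 of 8 (7% of all probes, 5978 of 21374 at an unadjusted p under 0.05), where Saa3 was nearest (1.97 ± 0.55, adjusted p = 0.0217) and 3 genes were called without T-LM P3 replicate 5. In K-LM 8 of 9 genes rose, against 3.53% of all probes and 2.35% called higher. Lrg1 rose by 4.15 ± 0.45 (adjusted p = 6.29e-06), Saa3 by 2.92 ± 0.50 (adjusted p = 0.00107), Saa1 by 2.72 ± 0.53 (adjusted p = 0.00298) and Cp by 1.43 ± 0.28 (adjusted p = 0.00307). Serpina3n was at least 33.9-fold higher at P6 (-1.26 ± 0.43, SD, n = 3, against -7.83 ± 0.34, n = 5, limma adjusted p = 7.17e-07), Serpina3m at least 12-fold (-2.76 ± 0.52 against -8.56 ± 0.31, adjusted p = 1.1e-11), Saa2 at least 4.75-fold (-4.10 ± 0.25 against -7.93 ± 0.41, adjusted p = 5.08e-05) and Hp at least 3.31-fold (-4.62 ± 0.46 against -8.26 ± 0.32, adjusted p = 0.000763), a call lost with the floor (0.39). The Saa1 call was lost without any 1 of the K-LM P6 samples, and the Cp call without replicate 1 or 2. Lcn2, already at 2.47 ± 0.60 at P3, was not called (1.22 ± 0.34, adjusted p = 0.0216). No slide held both K-LM P3 and K-LM P6, so this comparison rests on the term for the late slide that the repeat arrays provide. Fibroblast sums in K-LM were -2.94 to -1.71 at P3 and -1.08 to 0.62 at P6, and their part in these rises was not tested.

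The routes were then compared at the same passage. At P5, where every array lay on the earlier slides, 5 of 8 genes were higher in T-LM than in KPT (6.19% of all probes called, 2.37% higher). Saa3 differed by 4.98 ± 0.58 (adjusted p = 0.000163), Saa1 by 3.48 ± 0.42 (adjusted p = 2e-04), Lcn2 by 3.48 ± 0.35 (adjusted p = 4.72e-05) and Cp by 1.43 ± 0.20 (adjusted p = 0.000415). Serpina3n was called as well, at least 1.16-fold higher in T-LM (adjusted p = 0.00131), but 3 of 6 T-LM samples and 0 of 5 KPT samples were above background, and the difference was 0.00 with the floor. In K-LM 6 of 8 genes were higher than in KPT (8.28% called, 3.2% higher), among them Saa3 (7.09 ± 0.65, adjusted p = 5.78e-06), Saa1 (5.45 ± 0.47, adjusted p = 3.25e-06), Lcn2 (3.71 ± 0.39, adjusted p = 1.98e-05) and Cp (1.47 ± 0.22, adjusted p = 0.000409). The remaining ones were Serpina3n (at least 2.21-fold, adjusted p = 0.000166) and Saa2 (at least 1.4-fold, adjusted p = 0.00237), with no KPT P5 sample above background, and both calls were lost with the floor, at 0.17 and 0.09. Saa2 would not have been tested at P5 without the K-LM P5 arrays. Neutrophil sums were -3.27 to -2.21 in KPT P5, -2.59 to -1.80 in T-LM P5 and -1.20 to -0.48 in K-LM P5. Fibroblast sums were -1.80 to 3.47, -0.28 to 4.24 and 0.33 to 1.69 in the same order, and the part of either list in these differences was not tested. Within each slide that held both routes, all of these differences had the same sign. Between K-LM and T-LM at P5 0 of 8 genes were called (4.09% of all probes, 5704 of 19849 at an unadjusted p under 0.05), with Saa1 1.97 ± 0.45 higher in K-LM (adjusted p = 0.0113), and 1 gene was called without T-LM P5 replicate 1.

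At P6 6 of 9 genes were higher in T-LM than in KPT (11.5% of all probes called, 6.98% higher). Saa3 differed by 3.95 ± 0.26 (adjusted p = 8.06e-09), Saa1 by 2.85 ± 0.20 (adjusted p = 1.88e-08), Hp by 2.68 ± 0.48 (adjusted p = 0.000504), Lcn2 by 2.32 ± 0.28 (adjusted p = 7.82e-06), Lrg1 by 1.44 ± 0.21 (adjusted p = 7.49e-05) and Cp by 0.71 ± 0.17 (adjusted p = 0.00717), though the Cp call was lost in 10 of 17 alternatives. The Hp call was lost with the floor, at 0.31. Saa2, Serpina3n and Serpina3m were at background in both. All 9 genes were higher in K-LM than in KPT (16.1% called, 6.25% higher), with Saa3 5.44 ± 0.31 (adjusted p = 1.37e-09), Saa1 4.29 ± 0.24 (adjusted p = 1.1e-09), Lrg1 4.14 ± 0.25 (adjusted p = 2.79e-09), Hp 3.12 ± 0.56 (adjusted p = 0.000482), Lcn2 2.75 ± 0.32 (adjusted p = 8.76e-06) and Cp 0.95 ± 0.20 (adjusted p = 0.00214) higher on the log2 scale. With the floor 8 of the 9 calls were left, since Hp was then 0.39 and not called, and the Cp call was lost without K-LM P6 replicate 2. The genes at background in KPT were at least 47.7-fold (Serpina3n, adjusted p = 5.98e-10), 16.9-fold (Serpina3m, adjusted p = 2.05e-11) and 6.67-fold (Saa2, adjusted p = 3.5e-08) higher in K-LM. Serpina3n, Serpina3m and Saa2 would not have been tested at P6 without the K-LM P6 arrays, where they were high. Their calls in K-LM against KPT and against T-LM are thus not independent of the filter, though all were kept without it. On the late slide alone 8 of these 9 calls were made, and Cp, 0.95 higher there too, had an adjusted p of 0.0126.

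Between the lung-derived lines at P6, 6 of 9 genes were higher in K-LM than in T-LM (11.9% of all probes called, 4.18% higher), and these arrays lay on different slides. Serpina3n was at least 44-fold higher (adjusted p = 2.44e-08), Serpina3m at least 15.6-fold (adjusted p = 4.16e-10) and Saa2 at least 6.17-fold (adjusted p = 2.49e-07), all 3 being at background in T-LM P6. Lrg1 was 2.70 ± 0.29 higher (adjusted p = 4.31e-06), Saa1 1.44 ± 0.28 (adjusted p = 0.00131) and Saa3 1.49 ± 0.36 (adjusted p = 0.00646). The Saa3 call was lost in 9 of 16 alternatives, among them the floor, no filter on dim probes, the replicate block and leaving out any 1 of the K-LM P6 samples or T-LM P6 replicate 1, 2 or 4. Lcn2, Hp and Cp did not pass. Fibroblast sums were -1.65 to -0.98 in KPT P6, 0.41 to 2.02 in T-LM P6 and -1.08 to 0.62 in K-LM P6. Neutrophil sums were -3.57 to -3.25 in KPT P6, -2.05 to -1.58 in T-LM P6 and -2.77 to -1.35 in K-LM P6. Of 5 lung epithelium markers, Scgb1a1 was above background in 43 of 65 samples and the surfactant genes in 1 to 7, and their sums were -4.90 to -4.62 in KPT P6, -2.76 to -0.45 in T-LM P6 and -4.01 to -3.30 in K-LM P6. All 3 lists were higher in T-LM P6 than in KPT P6, and their part in the P6 results was not tested. Since all P6 comparisons share samples, their lists are not independent of each other.

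Genes around the acute-phase response were counted in lists. Of the Serpina3 relatives outside the 10 genes, 8 had a probe. From P0 to P1, 3 of 4 tested relatives rose in KPT and 5 of 5 in T-LM, against 3.27% and 2.13% of all probes. From P1 to P6 4 of 4 and 5 of 5 fell, against 6.28% and 5.45%. At P6 5 of 5 were higher in K-LM than in KPT, against 6.25%, with a median difference of 5.25 against -0.01 over all probes. Serpina3f went from -4.34 ± 0.34 (SD, n = 5) in KPT P6 to 1.87 ± 0.17 (n = 3) in K-LM P6, a fitted difference of 6.14 ± 0.23 (limma adjusted p = 1.06e-11). Serpina3i was at least 54.2-fold higher there, Serpina3b at least 14.5-fold and Serpina3c at least 8.4-fold. Some of these relatives may share signal with Serpina3n and Serpina3m, which was not tested.

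Of 28 other acute-phase proteins, 27 had a probe and 16 to 18 were tested. From P0 to P6, 6 were called higher in K-LM, 3 higher in T-LM, and 2 lower in KPT, against 3.68% and 5.9% of all probes called higher in the first 2 routes and 3.88% called in either direction in KPT. Cfb, complement factor B, was at least 29.1-fold higher in K-LM P6 than at P0 (-1.79 ± 0.21, SD, n = 3, against -8.19 ± 0.08, n = 2, limma adjusted p = 6.93e-08). In KPT, complement C3 fell by 2.44 ± 0.35 (adjusted p = 0.00019) and the metallothionein Mt2 by 1.21 ± 0.24 (adjusted p = 0.00332). At P6 9 were higher and 1 lower in K-LM than in KPT (median difference 1.03), and 8 higher and 1 lower in T-LM than in KPT (median 0.51). Of all probes 16.1% and 11.5% were called there, 6.25% and 6.98% were called higher, and both medians were -0.01. Of 6 negative acute-phase proteins, which fall in the liver response, at most 2 were tested. One of them, Trf, encoding transferrin, was at least 18.7-fold higher in T-LM than in KPT at P6 (adjusted p = 2.27e-10) and at least 21.4-fold lower in K-LM than in T-LM (adjusted p = 2.44e-08).

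Of the inducing cytokines and their receptors, 18 had a probe and 11 to 15 were tested. At P6 Il11, Il1b and Il1a were called lower in K-LM than in T-LM, and Il6 differed by -2.44 ± 0.72, K-LM minus T-LM on the log2 scale, and did not pass (adjusted p = 0.0215). Il6, the main inducer of the liver response, was at least 50.2-fold higher in T-LM P6 than at P0 (adjusted p = 0.000243). Its level was -1.0 ± 0.49 (SD, n = 4) in T-LM P6, -3.94 ± 1.70 (n = 3) in K-LM P6 and -7.05 ± 0.60 in KPT P6, where 1 of 5 samples was above background. The T-LM and KPT levels at P6 differed with an adjusted p of 3.08e-07. Il11, a cytokine of the same family, was at least 41.2-fold higher in T-LM P6 than at P0 (adjusted p = 8.1e-06) and at least 53.2-fold lower in K-LM P6 than in T-LM P6 (adjusted p = 5.59e-09). Il1b was at least 8.28-fold lower in K-LM P6 than in T-LM P6 (adjusted p = 1.47e-06). In all, 1 of 12 tested cytokine and receptor genes was higher and 3 were lower in K-LM than in T-LM at P6, where 11.9% of all probes were called and 4.18% called higher. Against KPT at P6, 3 of 12 were higher and 1 lower in K-LM, where 16.1% of all probes were called and 6.25% called higher. From P0 to P6, 3 of 14 were higher and 0 lower in K-LM, against 3.68% of all probes called higher. In T-LM 4 of 12 were higher and 1 lower, against 5.9% called higher.

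Of 16 transcription factors and feedback genes, 14 were tested. From P0 to P1 in KPT 3 rose, against 3.27% of all probes, among them Socs3, a feedback inhibitor of STAT3 signalling (3.00 ± 0.71, adjusted p = 0.00928), and Bcl3, a partner of NF-kappaB (2.29 ± 0.52, adjusted p = 0.00715). From P1 to P6 in KPT 8 fell, against 6.28% of all probes, and 0 rose, with a median of -0.87 against -0.05 over all probes. At P6 8 of 14 were higher in K-LM than in KPT and 0 lower (median 0.72), against 6.25% of all probes called higher. Nfkbiz, a co-activator of NF-kappaB on secondary response genes, was at background in KPT P5 and at least 4.55-fold higher in T-LM (adjusted p = 4.35e-05) and at least 5.31-fold higher in K-LM (adjusted p = 1.79e-05). Of 10 receptors and partners of these proteins 6 or 7 were tested, and at P6 2 were higher in K-LM than in KPT and 2 in T-LM than in KPT, against 6.25% and 6.98% of all probes.

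Across the 65 RNA samples, the genes whose levels were most like each of these were named from 11799 genes by Pearson r, as a description. Nfkbiz (r = 0.89), Nfkbia (0.84) and Serpina3f (0.83) were most like Lcn2. Serpina3f (0.87), Serpina3i (0.86) and Mmp3 (0.86) were most like Saa3, and Serpina3b (0.87), Serpina3h (0.86) and Mmp3 (0.86) most like Saa1. Slc10a6 (0.87) led for both Saa2 and Serpina3n. For Lrg1 C4b and Sptlc2 (both 0.84) led, for Cp C1s2 (0.85), C1ra (0.84) and C3 (0.83), and for Hp Wdr92 and Col4a2 (both 0.87) and Diaph2 (0.86). Within the 9 genes, Saa2 and Serpina3n (0.85), Lcn2 and Saa3 (0.84) and Lrg1 and Serpina3n (0.83) were alike next to the Saa1 and Saa3 pair, and Serpina3m and Lcn2 were least alike in this comparison (0.37). Serpina3m, Saa2, Serpina3n and Hp were above background on only 9, 16, 26 and 32 of 70 arrays. Values near background have no reliable order, so r is least certain for these genes.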

How the data were processed

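RNA levels were measured on single-colour (Cy5) Agilent SurePrint G3 mouse arrays. Per the labels, tissue was homogenised, RNA was taken on RNeasy columns and labelled with the Low-Input Quick Amp kit. The deposited scanner files hold spot intensity values that the authors extracted with Agilent Feature Extraction 11.0.1.1, or 12.0.2.2 for the late slide of 8 arrays, with background subtracted in the processed signal. The deposited series table holds log2 values that the authors made by quantile normalization of the median signal, and it served as an alternative.

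Control spots and flagged outlier spots were left out, spots of a probe were averaged, and each array's log2 processed signal was set relative to its 75th percentile over 11289 probes well above background on all 70 arrays. Over all probes that percentile ranged from 128.4 to 855.7 in processed signal. Precision is limited by how many arrays there are. Gene names came from a RefSeq table, matched on gene name or transcript: 28026 of 55681 probes had 1 symbol and 27655 had none.

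Fits used limma 3.58.1 (lmFit and eBayes, 2-sided) in R 4.3.3 on probes that passed the background call on 2 or more of the arrays fitted, with Benjamini-Hochberg adjustment over all of them. Each fit of a route also held that route's other passages, and those with K-LM P6 held the repeat arrays, a late-slide term and a random block for RNA sample (correlations 0.676 and 0.372 from 4000 probes). Elsewhere the first array of an RNA sample was used, and levels given per sample average its arrays. Where a group was not above background on any array, "at least" folds compare the brighter group's mean with the higher of the dim probe's own signal and the lowest passing signal on each array. The fits were tested on simulated data with 200 changed probes. At a simulated log2 change of 3, 86% to 99% were recovered. Promoters were read with Python 3.11.15 and Biopython 1.88.

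The alternatives were the percentile over all probes, normexp (offset 50) with quantile normalization, the deposited series values, no filter, a common floor on dim values, any probe of a gene, slide as a random block, no late-slide term, the late slide alone, only the compared groups, the replicate number as a block, and each RNA sample left out in turn. The genes named are the 10 members and, in each comparison, at most the 4 called genes with the largest change over all lists together. Il1a and Il6 in K-LM against T-LM at P6 were named outside this rule. The members and lists were chosen with earlier results of these data known.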

Additional observations from a re-analysis of the deposited data

Results flagged for a closer look

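In each gene and group of 4 to 10 RNA samples, the gap between the highest or lowest sample and its neighbour was set against the range of the group (Dixon's test). Of 90 sets of levels tested, 11 had such a sample, and chance gives about 1 in 20. Of these, 5 came from the P1 tail sample whose title carries no replicate number, which was the lowest of 5. It was at -3.33 for Saa1 (others 0.31 to 1.58), -8.54 and not above background for Saa2 (others -3.07 to -1.72), -2.03 for Saa3 (others 2.35 to 3.60), 1.11 for Lcn2 (others 3.59 to 3.84) and -4.13 for Lrg1 (others -1.63 to -0.93). Its fibroblast sum of -1.22 was also below the 1.25 to 2.80 of the others, and the part of this in its levels was not tested.

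At T-LM P5, replicate 1 was the highest for Hp at -2.28 (others -8.66 to -6.65) and the lowest for Lcn2 at 2.36 (others 3.24 to 3.72). Its array had the lowest share of probes above background in the series, 25.1%, whose part in these values was not tested. At T-LM P4, replicate 3 was the highest for Lcn2 at 2.95 (others 1.79 to 1.97). At K-LM P5, replicate 6 was the lowest for Lcn2 at 3.32 (others 3.52 to 3.55), and replicate 3 was the highest for Serpina3m at -8.07, where no sample was above background (others -8.59 to -8.51). At KPT P5, replicate 1 was the highest for Lrg1 at -5.29 (others -5.53 to -5.47).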

How the results depend on the processing

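Of 69 called changes of a gene, 41 were called under every alternative, 27 were lost under at least 1, and 1, Serpina3n in T-LM against KPT at P5, fell to 0.00 with dim values at a common floor. Of 80 changes not called, 22 passed under some alternative and 20 reversed under some, and the cause was not tested. With each RNA sample left out in turn, K-LM kept 6 to 7 calls from P0 to P6 and 6 to 9 from P3 to P6. The depth of evidence is least for probes near background, where values have no reliable order, and for comparisons with the pair of P0 samples.

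The number of genes called from P0 to P1 in KPT (5) was 3 without the filter, 3 with the floor, 2 with the replicate block, 0 with only the compared groups, and 0 to 5 with 1 sample left out (0 without P0 replicate 2). In T-LM (4) it was 1 with the replicate block, 0 with only the compared groups, 8 without the unnumbered sample, and 0 to 8 with 1 sample left out. From P0 to P6 in KPT (0) it was 1 without the filter and 1 with only the compared groups. In T-LM (1) it was 0 with the floor, 2 with slide as a random block, 0 with the replicate block, 2 with only the compared groups, and 0 to 1 with 1 sample left out. From P1 to P6 in T-LM (4) it was 1 with only the compared groups. From P3 to P6 in T-LM (0) it was 1 with any probe, 1 with only the compared groups, and 0 to 3 with 1 sample left out. For T-LM against KPT at P1 (0) it was 1 without the unnumbered sample, and 0 to 1 with 1 sample left out. For K-LM against T-LM at P5 (0) it was 1 with the percentile over all probes, 2 with normexp, 2 with the deposited values, 1 with slide as a random block, 2 with the replicate block, and 0 to 1 with 1 sample left out. For the difference between T-LM and KPT in the P1 to P6 change (0) it was 1 with the percentile over all probes, 1 with normexp, 1 with the deposited values, 1 with slide as a random block, 3 without the unnumbered sample, and 0 to 3 with 1 sample left out.

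Of changes that reversed or reached 0, the percentile over all probes gave -0.11 for Cp from P3 to P6 in KPT, 0.00 for Cp in K-LM against T-LM at P5 and 0.19 for Lcn2 from P1 to P6 in T-LM. Normexp and the deposited values gave 0.07 and 0.04 for Cp from P0 to P1 in KPT and 0.09 and 0.11 for Saa2 in T-LM against KPT at P6, and the deposited values 0.02 for Saa2 from P0 to P6 in T-LM. The floor gave 0.00 for Hp from P0 to P6 and Lrg1 from P3 to P6 in KPT, Serpina3n and Saa2 from P3 to P6 in T-LM, Saa2 in T-LM against KPT at P5 and P6 and Serpina3m at P6, 0.03 for Lrg1 in K-LM against T-LM at P5, and -0.32 for Hp in the difference of the P1 to P6 changes. Slide as a random block gave 0.02 for Lcn2 from P1 to P6 in T-LM.

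Same-numbered replicates had correlations of -0.38 to 0.77 in their deviations and no comparison with 3 or more pairs had all of them over 0.1, so the numbers were not taken to pair the samples. The replicate block gave 0.16 for Cp from P0 to P1 in KPT, 0.02 for Lcn2 and 0.35 for Hp from P0 to P6 in KPT, 0.11 for Saa2 from P3 to P6 in T-LM, 0.15 for Lcn2 from P1 to P6 in T-LM, 0.01 for Cp from P0 to P6 in K-LM, 0.83 for Hp in K-LM against KPT at P5, and -0.01 for Cp and 0.04 for Hp in K-LM against T-LM at P5.

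With 1 sample left out, ranges crossed 0 for Cp in K-LM against T-LM at P5 (-0.12 to 0.14), from P0 to P1 in KPT (-0.09 to 0.09), from P0 to P6 in K-LM (-0.26 to 0.09) and from P3 to P6 in KPT (0.00 to 0.19). They did so for Hp in K-LM against KPT (-0.54 to 0.53) and against T-LM (-1.01 to 0.26) at P5, and in T-LM against KPT at P1 (-0.10 to 1.28) and P5 (-0.37 to 1.12). For Lcn2 they were -1.24 to 0.13 from P0 to P6 in KPT and -0.53 to 0.15 from P1 to P6 in T-LM, for Lrg1 -0.42 to 0.21 in K-LM against T-LM at P5, and for Saa2 -0.66 to 0.10 from P3 to P6 in T-LM and -0.21 to 0.10 in T-LM against KPT at P6.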
